A study of Mus musculus with 4 samples.

Results

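A set of 7 genes, Ptgdr, Gpr37, Uts2b, Spp2, Tm4sf4, Nkx3-2 and AI593442, was almost without counts in mouse embryonic stem cell aggregates until doxycycline (Dox) was added, and reached a low level with Dox. They were taken from the 24 genes, of 21822 gene units in the count tables, that had 10 or fewer counts over both no Dox libraries and over 100 counts over both Dox libraries. The 7 were picked as genes outside the known motor neuron families, such as the acetylcholine genes. That choice was not strict. A relative of Uts2b is known from motor neurons, and Tm4sf1, a relative of Tm4sf4, is among the 24 but not the 7. The other 17 are described with them below. The genes were thus chosen by their measured counts in these libraries, and because of that their difference between the groups is given as a description, with counting intervals and without a test.

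The cells were iMN-ESCs, a mouse embryonic stem cell line of C57BL/6 background, per the labels, in which Dox induces a fusion of Isl1 and Lhx3, LIM-homeodomain transcription factors that occur together in developing spinal motor neurons. In the Dox group (2 libraries), cells first aggregated for 2 days in LIF-containing stem cell medium. All-trans retinoic acid at 0.5 µM was present over the next 2 days, and Dox at 2 µg/mL joined it for the last 2 to 3 days. The no Dox group (2 libraries) had the same medium and retinoic acid without Dox. Every library thus came from the same transgenic line, and no group without the transgene received Dox, so what the fusion did and what the drug did cannot be told apart. The design describes the libraries as biological duplicates, and no source used here gives the promoter that drives the fusion or the number of clones. The RNA came from whole aggregates, in which more cells of a type and more RNA per cell cannot be told apart.

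The 7 genes act in unrelated systems. Ptgdr encodes a receptor for prostaglandin D2, a lipid signal that acts through a G protein to raise cyclic AMP. Gpr37 encodes a G protein-coupled receptor of neurons and oligodendrocytes that is a substrate of the ubiquitin ligase parkin, and prosaposin has been proposed as its ligand. Uts2b encodes the urotensin II-related peptide, a ligand of the urotensin receptor Uts2r. Its relative urotensin II is known from motor neurons of the brainstem and spinal cord. Spp2 encodes a secreted phosphoprotein with a cystatin-like domain, known from liver and bone matrix. Tm4sf4 encodes a membrane protein with several membrane-spanning segments, known from intestine, liver and pancreas. Nkx3-2, also called Bapx1, is a homeobox repressor of the sclerotome and of cartilage. AI593442 is a protein-coding gene for which no role is given here.

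Homeodomain proteins bind short sites rich in A and T, so the promoter windows of the 7 genes, 250 bases before to 50 bases after the annotated start, were read from RefSeq (GRCm38.p6) for such letters. Windows were found for 7 of 7 genes. The letters TAATTA, the same on both strands, were in none of the 7 windows and in 5.29% of all 32851 windows. The letters TAATTG, on either strand (CAATTA), were in the windows of Uts2b and Spp2 and in 8% of all windows. The letters TATAAA, on either strand (TTTATA), were in those of Uts2b and Tm4sf4 and in 13.6% of all. The windows that hold TAATTG are shown 5′ to 3′ on the strand of the gene, with that match in capitals. In the Uts2b window (chr16:27370190-27370489, minus strand) it begins 25 bases before the start. In the Spp2 window (chr1:88406760-88407059, plus strand) it reads CAATTA and begins 202 bases before the start.
Uts2b: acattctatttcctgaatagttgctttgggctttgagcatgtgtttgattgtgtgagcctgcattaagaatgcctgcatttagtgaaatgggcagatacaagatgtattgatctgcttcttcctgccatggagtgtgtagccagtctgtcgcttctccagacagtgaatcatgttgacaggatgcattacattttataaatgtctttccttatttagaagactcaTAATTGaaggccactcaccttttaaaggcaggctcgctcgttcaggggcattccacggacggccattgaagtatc
Spp2: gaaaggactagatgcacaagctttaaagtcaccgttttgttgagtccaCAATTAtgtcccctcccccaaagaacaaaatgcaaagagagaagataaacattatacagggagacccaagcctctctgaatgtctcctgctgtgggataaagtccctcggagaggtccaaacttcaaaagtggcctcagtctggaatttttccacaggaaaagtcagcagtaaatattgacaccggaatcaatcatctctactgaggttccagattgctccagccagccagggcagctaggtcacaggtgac
These matches describe the letters of the windows and do not show binding. The windows of Uts2b, Spp2, Tm4sf4 and Ptgdr held 5, 3, 4 and 3 CpG dinucleotides, against a median of 7 over all windows, and those of Nkx3-2, Gpr37 and AI593442 held 25, 21 and 12.

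The libraries held 37311037 and 53903936 counts with Dox and 28239859 and 24020832 without Dox. Levels are given as CPM, counts per 1000000 after TMM scaling. The induced factors followed the labels: Lhx3 stood at 125 and 108 CPM with Dox and at 0.404 and 0.286 CPM without it, and Isl1 at 104 and 82.4 CPM with Dox and at 3.08 and 5.83 CPM without it. Of 8 motor neuron markers, 6 were called higher by edgeR's quasi-likelihood test at an adjusted p under 0.05, against 1.23% of the 14283 genes tested (1.28% in either direction). These 6 include Isl1 and Lhx3, which form the induced fusion, and Chat and Slc5a7, which are among the 24 genes chosen by their counts, so for them the call is no independent check. The others were Mnx1 and Slc18a3. Such p-values rest on 2 libraries a group, with the spread of a gene estimated in part from other genes.

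Of the receptors, Ptgdr had 113 and 305 counts with Dox, against 0 and 1 count without Dox, which corresponds to 3.02 and 5.58 CPM with Dox against 0 and 0.0408 CPM without it. Both Dox libraries were far above both no Dox libraries, and the second Dox library was the higher. The ratio of summed counts, Dox over no Dox and scaled by the library totals after TMM, was 235, with an exact 95% interval of 42 to 9308. It rests on a single no Dox count: the ratio was 111 without no Dox replicate 1, at least 41.3 without no Dox replicate 2, where the remaining no Dox library had 0 counts, and 156 without Dox replicate 2. An annotated gene on the opposite strand, Gm16976, overlaps exon 1 of Ptgdr. Whether the counting used strand is not given, so reads of exon 1 may come from either gene. Exon 2, which it does not overlap, held 335 of the 418 Dox counts. Gpr37 had 111 and 191 counts with Dox and 3 and 4 counts without Dox. Its Dox level averaged 3.23 ± 0.372 CPM, against 0.137 ± 0.0376 CPM without Dox (SD, n = 2 each), and the groups did not overlap. The ratio for Gpr37 was 24.3 (exact 95% interval 11.6 to 60.9).

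The secreted products were low and clear of the no Dox libraries as well. Uts2b had 53 and 134 counts with Dox, against 1 and 2 counts without Dox. In CPM, Uts2b stood at 1.42 and 2.45 with Dox and at 0.0367 and 0.0816 without Dox, so that the Dox libraries differed from each other but not in their side. The ratio for Uts2b was 35.1 (exact 95% interval 11.8 to 172). When 1 library was left out, it ran from 24.5 without Dox replicate 2 to 55.4 without no Dox replicate 2. Spp2 had 111 and 137 counts with Dox and 3 and 2 without Dox. The Dox level of Spp2 averaged 2.74 ± 0.326 CPM, against 0.0958 ± 0.0201 CPM without Dox (SD, n = 2 each). Its ratio was 27.9 (exact 95% interval 11.8 to 86.7).

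Tm4sf4 was the only one of the 7 with no count in either no Dox library. It had 46 and 76 counts with Dox, or 1.23 and 1.39 CPM. Against a floor of 3 counts over the no Dox group, it was at least 22.9-fold higher with Dox, and the lower limit of the exact 95% interval of its ratio was 18.3. The upper exact 95% limit of its no Dox level was 0.0713 CPM. With the floor set on the remaining library, it was at least 10.8-fold higher without no Dox replicate 1 and at least 12-fold higher without no Dox replicate 2. The homeobox gene Nkx3-2 had the lowest Dox level. Nkx3-2 had 48 and 68 counts with Dox and 2 and 1 counts without Dox. Its Dox level averaged 1.26 ± 0.0279 CPM, against 0.0571 ± 0.023 CPM without Dox (SD, n = 2 each), and the ratio was 21.7 (exact 95% interval 7.26 to 107). AI593442 had 88 and 157 counts with Dox and 3 and 2 counts without Dox, or 2.35 and 2.87 CPM against 0.11 and 0.0816 CPM. The ratio for AI593442 was 27.6 (exact 95% interval 11.7 to 85.6).

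**Figure D1:**
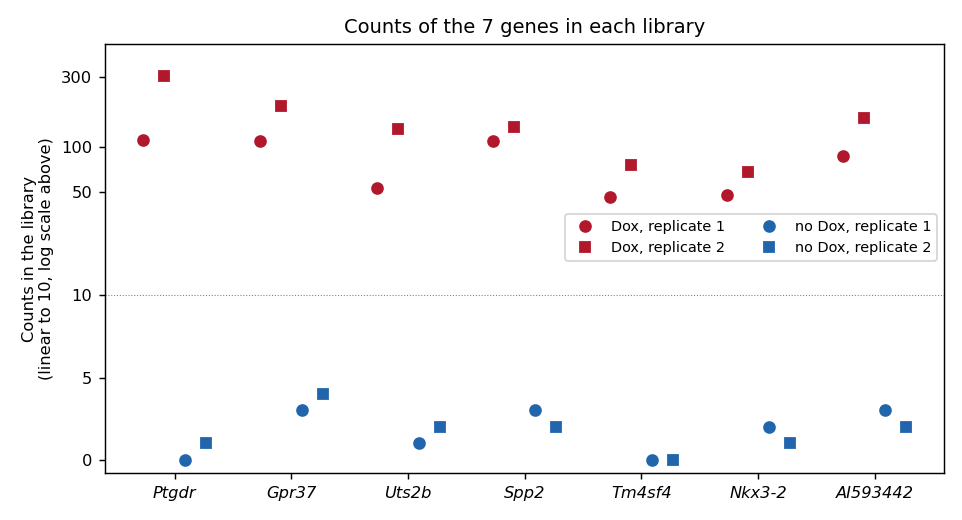
Counts of each gene in each of the 4 libraries, on an axis that is linear up to 10 and logarithmic above it; red marks are Dox libraries, blue marks no Dox libraries, circles replicate 1 and squares replicate 2. The Dox libraries hold 46 to 305 counts of each gene and the no Dox libraries 0 to 4.

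The genes summed to 570 and 1068 counts, or 15.2 and 19.5 CPM, in the Dox libraries, against 12 counts each, or 0.44 and 0.49 CPM, in the no Dox libraries. In each of the 7 genes both Dox libraries lay above both no Dox libraries, as the rule led to, and 18.9% of all genes tested did so. Counts of the genes in single no Dox libraries ran from 0 to 4, so the size of each ratio is known only within its interval. The intervals of the 6 ratios with a no Dox count above 0 all overlapped each other, so the order of the ratios is not resolved at this depth. Of 7322 gene units with 10 or fewer no Dox counts, 24, or 0.328%, had over 100 Dox counts. The median Dox count of the 7322 units was 0. In the opposite direction, 0 gene units had 10 or fewer counts with Dox and over 100 without it, where the no Dox libraries had the smaller totals and that threshold is harder to reach.

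**Figure D2:**
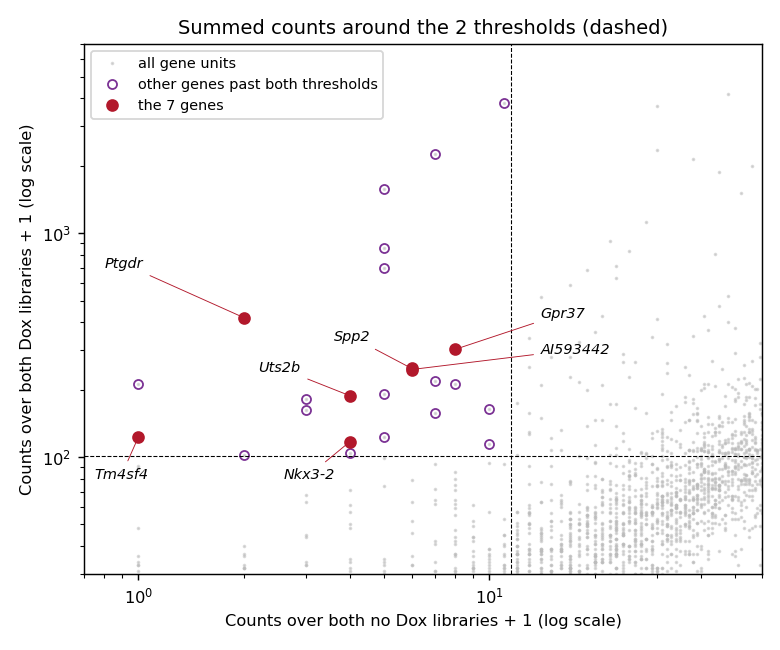
Summed counts plus 1 over both Dox libraries (y) against those over both no Dox libraries (x), both on log scales, in the range around the thresholds (dashed lines at 100 and 10 counts); grey points are gene units, open circles the other genes past both thresholds and red points the 7 genes. The red points lie between 116 and 418 Dox counts and 0 and 7 no Dox counts.

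Close to the thresholds, Slc10a4 was just inside with 10 no Dox counts, and Slc36a2 and Mr1 with 9 each. Cdh20 and Adam5 were just outside with 11 each, and Egfl6 with 12. On the Dox side, Nyap2 with 101 counts, Aldh1a3 with 103 and Mr1 with 113 were just inside, and Olfm3 with 98, A930012L18Rik with 93 and Trim47 with 92 were just outside. The 7 genes themselves were nearest to a threshold in Nkx3-2, with 116 Dox counts, and in Gpr37, with 7 no Dox counts.

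The other 17 genes past both thresholds fall into 2 ranges of Dox level. Slc10a4, Slc5a7 and Chat, which act in acetylcholine synthesis and its vesicles, Lhx4, the close relative of Lhx3, and Chodl had 3817, 2261, 1572, 855 and 701 Dox counts, above each of the 7 genes. The remaining 12 had 101 to 217 Dox counts, within or just under the 116 to 418 of the 7 genes. They were Erg, the microRNA gene Mir218-2, Mc4r, Meox2, Inpp4b, Slc36a2, Tm4sf1, Gna14, Cavin2, Mr1, Aldh1a3 and Nyap2. Among the 17, the highest ratio was that of Chat at 221 (exact 95% interval 86.2 to 812) and the lowest that of Mr1 at 7.06 (exact 95% interval 3.59 to 15.8). Mir218-2, with 0 no Dox counts and 211 Dox counts, was at least 39.6-fold higher with Dox against the same floor, with a lower exact 95% limit of 31.9.

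**Figure D3:**
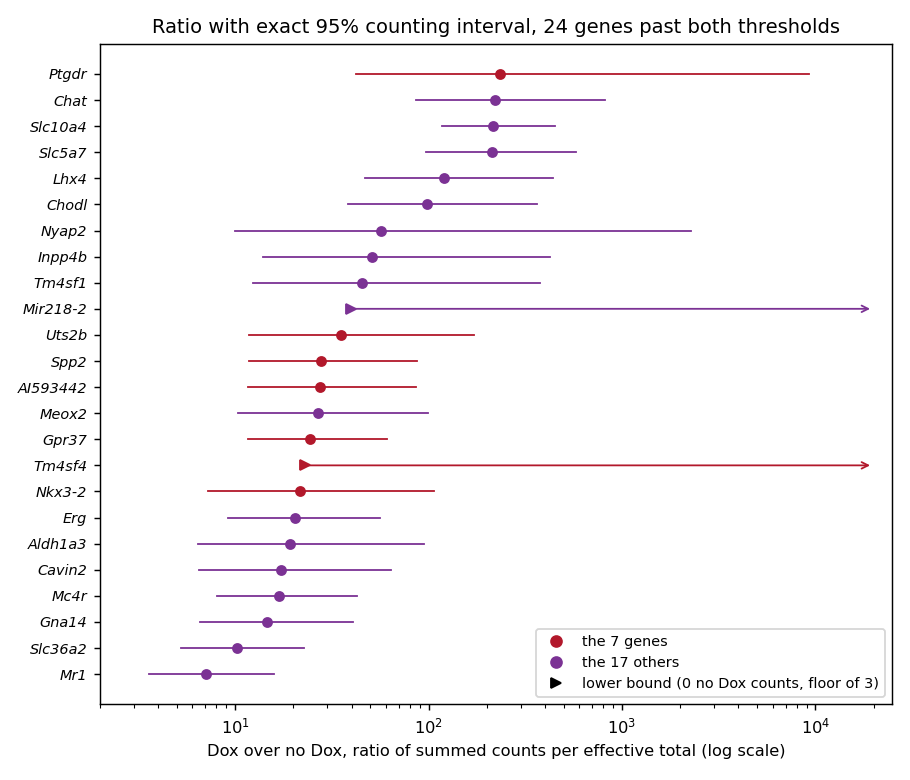
Ratio of summed counts, Dox over no Dox, scaled by library totals after TMM, on a log axis for the 24 genes past both thresholds; points are ratios, lines exact 95% counting intervals, and triangles with arrows lower bounds against a floor of 3 counts. The 7 genes (red) run from 21.7 for Nkx3-2 to 235 for Ptgdr, among the 17 others (purple), which run from 7.06 to 221.

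Likeness of pattern was measured as the Euclidean distance of log2(CPM + 0.1) over the 4 libraries, and the nearest gene outside the 7 was taken for each. The nearest was Erg, an ETS factor of endothelium, for 3 of them, at a distance of 0.77 for Gpr37, 0.87 for Spp2 and 0.68 for AI593442. Erg had 71 and 146 counts with Dox and 2 and 4 without Dox. Chodl was nearest to Ptgdr (1.32), Gna14 to Uts2b (0.75), Nyap2 to Tm4sf4 (0.64) and Olfm3 to Nkx3-2 (0.64). With 4 libraries in 2 groups, such distances mainly reflect the 2 levels of a gene.

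The Dox libraries differed from each other in only some of the genes. The ratio of Dox replicate 2 over Dox replicate 1 in CPM was 1.85 for Ptgdr (exact 95% counting interval 1.48 to 2.31) and 1.73 for Uts2b (1.25 to 2.42). For the other 5 the counting interval included 1, from 0.844 for Spp2 (0.653 to 1.09) to 1.22 for AI593442 (0.934 to 1.6). The median over the 7 was 1.18, with 5 above 1. Over all genes tested the median was 1, with 50.7% above 1, and over the 17 other genes past both thresholds it was 1.2, in a range of 0.348 for Inpp4b to 4.23 for Cavin2. These intervals cover counting error, and with 1 library on each side the difference has no replicate check.

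By Dox level the 7 genes ranked between 11102 and 12675 of 21822 gene units, far under Lhx3. The units include many with almost no counts, and 14283 had enough to be tested, so these ranks are low among the measured genes. In CPM with Dox, Ptgdr came first, followed by Gpr37, Spp2, AI593442, Uts2b, Tm4sf4 and Nkx3-2. Only Uts2b and Tm4sf4 of these neighbours in the order had Dox values that did not overlap or meet (1.42 and 2.45 CPM against 1.23 and 1.39 CPM). A longer transcript collects more reads, so levels between the genes were also set per kb of the GENCODE M21 transcript matched to the counted one. On that scale Spp2 was highest, at 3.2 and 2.7 CPM per kb in Dox replicates 1 and 2 over 928 nt. Uts2b followed with 1.7 and 2.94 CPM per kb over 835 nt, which overlapped with Spp2. Ptgdr had 0.948 and 1.75 CPM per kb over 3187 nt and overlapped with Uts2b. Tm4sf4 (0.822 and 0.93), Nkx3-2 (0.747 and 0.724), Gpr37 (0.597 and 0.703) and AI593442 (0.419 and 0.512 CPM per kb) followed without overlap between neighbours. A read across a junction may be counted in both exons, which raises genes with many short exons such as Spp2 and Uts2b on this scale.

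How the counts lay along each gene was not part of the rule. The number of counted parts of each of the 7 genes equalled its number of GENCODE exons, and parts were matched to exons in the order of genome coordinate. In 4275 genes on the minus strand, that order gave a median Spearman correlation across parts of 0.577 between count and exon length, and transcript order gave -0.119. In 6 of the 7 genes, every exon had counts with Dox. Spp2 had 13 to 54 counts in each of its 8 exons, with most in exons 2 to 4, and Tm4sf4 had 15 to 36 in each of its 5 exons. Uts2b had 23 to 51 counts in each of its 5 exons. The 2 exons of Gpr37 held 136 and 166 counts and those of Nkx3-2 held 63 and 53. In Ptgdr, exon 1 held 83 counts and exon 2 held 335, at 0.935 and 1.64 CPM per kb. In Dox replicate 1 the exons of Ptgdr held 32 and 81 counts, and in Dox replicate 2 they held 51 and 254, so the higher count of replicate 2 was mostly in exon 2. AI593442 was the exception: its second exon, of 5474 nt, held 245 of 245 Dox counts and 5 of 5 no Dox counts, and its first, of 141 nt, held 0 in every library. The exon models come from a later annotation than the counts, so the first exon counted may differ.

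**Figure D4:**
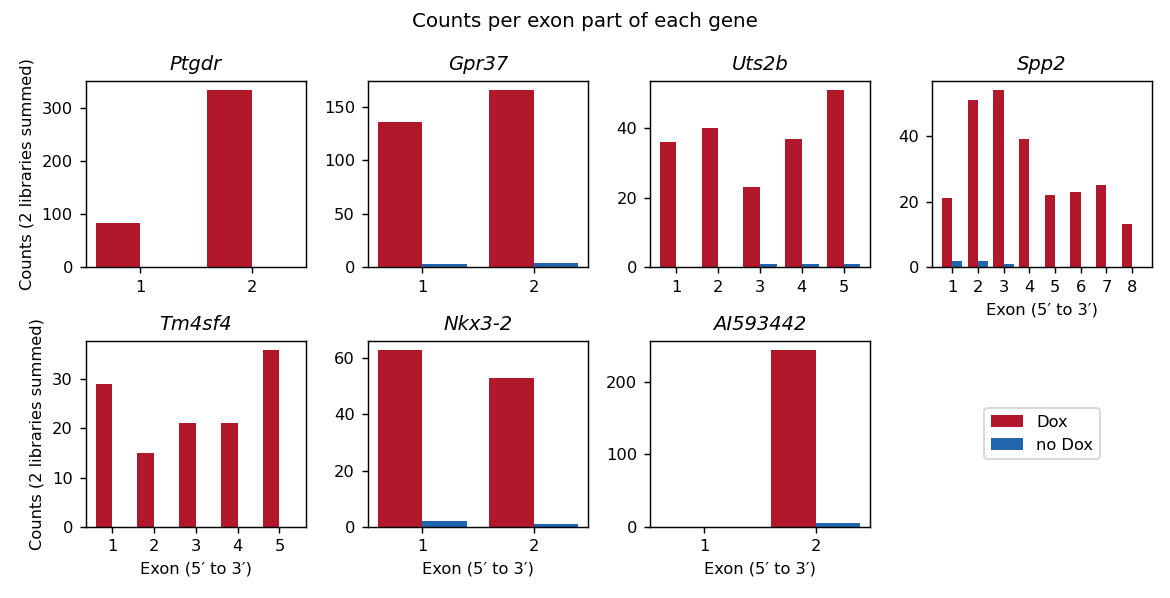
Counts in each exon part of the 7 genes, summed over both Dox libraries (red, left) and both no Dox libraries (blue, right), with exons in order from the 5′ end. Dox counts fill each exon of 6 genes, while AI593442 has 245 counts in exon 2 and 0 in exon 1.

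To ask whether the genes beside the 7 changed too, the 2 nearest genes of the count tables on each side of each were taken from the GRCm38.p6 gene order. Of these 28 neighbours 17 had enough counts to be tested, 1 was called higher by edgeR's quasi-likelihood test, against 1.23% of all genes tested, and 0 were called lower, against 0.056%. Without adjustment, p was under 0.05 for 2 genes that were higher (6.26% of all genes tested) and for 2 that were lower (4.02%). Their median log2 fold change was -0.05, against -0.01 over all genes tested, and 13 of the 17 lay within 0.3 of 0. Of the more abundant flanking genes, Ccdc50, next to Uts2b, stood at 256 and 242 CPM with Dox and at 289 and 250 CPM without Dox (log2 fold change -0.12, SE 0.13, edgeR adjusted p = 0.874). Wwtr1, next to Tm4sf4, stood at 107 and 104 CPM with Dox and at 120 and 92 CPM without Dox (log2 fold change -0.01, SE 0.15, edgeR adjusted p = 0.998).

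The neighbour that was called lies beside Tm4sf4 and belongs to the same family of membrane proteins. Tm4sf1 had 81 and 80 counts with Dox and 2 and 0 counts without Dox, or 2.17 and 1.46 CPM against 0.0734 and 0 CPM, with no overlap. The log2 fold change was 5.43 (SE 0.74, edgeR adjusted p = 0.0352), and the ratio of summed counts 45.3 (exact 95% interval 12.3 to 377). Without no Dox replicate 1, which leaves a no Dox library with 0 counts, the fitted log2 value was 9.14. Tm4sf1 itself met the count thresholds, and is named here for its place. The next gene beyond it, Nbea, a scaffold protein of neuronal membrane traffic, stood at 135 and 95.1 CPM with Dox and at 61.3 and 36.4 CPM without Dox (log2 fold change 1.23, SE 0.28, edgeR adjusted p = 0.151). When 1 library was left out, the log2 fold change of Nbea ran from 0.90 to 1.67. Beside Ptgdr lies Ptger2, a receptor for prostaglandin E2, which was too low to be tested and had 10 and 20 counts with Dox and 0 in both no Dox libraries. Against a floor of 3 counts over the no Dox group, Ptger2 was at least 5.62-fold higher with Dox. Gm7854, near Nkx3-2, had 1 and 21 counts with Dox and 0 in both no Dox libraries, so its counts came almost wholly from Dox replicate 2.

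**Figure D5:**
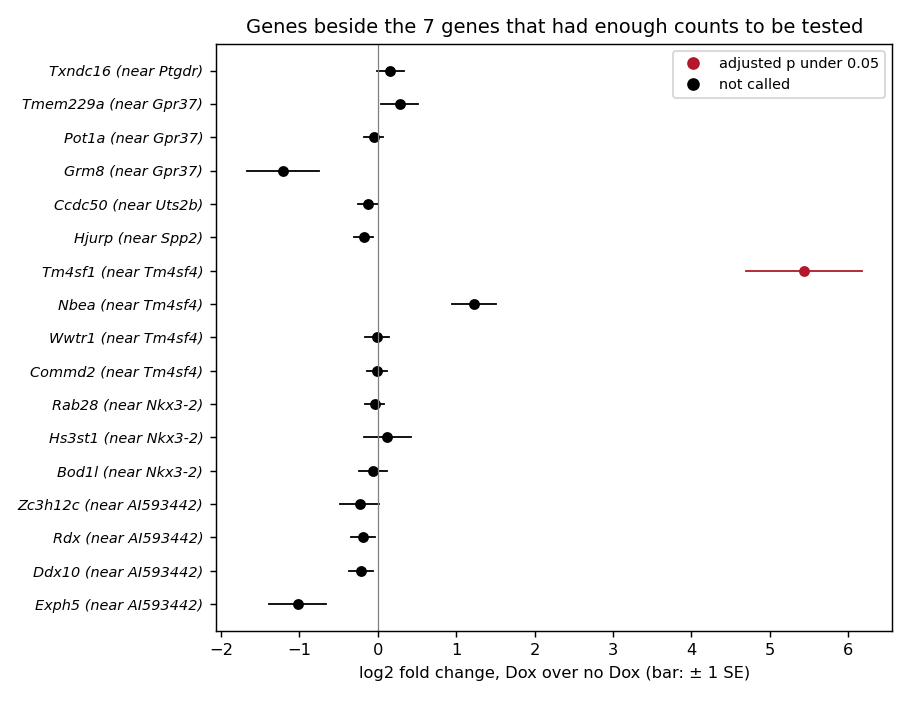
Log2 fold change, Dox over no Dox, of the 17 tested genes that lie beside the 7 genes, with bars of 1 SE from edgeR; red is an adjusted p under 0.05. Tm4sf1 stands at 5.43, and 13 of the 17 lie within 0.3 of 0.

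Relatives and partners of the 7 genes were read from 7 lists, of which 35 of 62 measured genes had enough counts to be tested. The edgeR test called 2 higher, Tm4sf1 and Nkx6-2, and 0 lower, where the shares over all genes tested were 1.23% and 0.056%. An unadjusted p under 0.05 was reached by 9 in the higher and 4 in the lower direction, where the shares over all genes tested were 6.26% and 4.02%. For Ptgdr, none of 5 tested prostanoid receptors and none of 9 tested genes of prostanoid synthesis and clearance was called (medians 0.27 and -0.10 on the log2 scale), with 1 receptor higher and 1 synthesis gene higher and 2 lower at an unadjusted p under 0.05. Ptger1, the most abundant of the receptors, stood at 8.02 and 9.22 CPM with Dox and at 6.86 and 9.06 CPM without Dox. The enzymes that make prostaglandin D2 were near the floor. Ptgds had 4 and 3 counts with Dox and 0 and 1 without Dox. Hpgds had 10 and 16 counts with Dox and 16 and 14 without Dox. In CPM, Hpgds stood at 0.267 and 0.293 with Dox and at 0.587 and 0.571 without Dox. Its log2 fold change was -1.03 (SE 0.42, edgeR adjusted p = 0.478), and it was 1 of the 2 lower genes at an unadjusted p under 0.05. Ptgs1, a cyclooxygenase, stood at 1.6 and 3.06 CPM with Dox and at 0.55 and 0.367 CPM without Dox (log2 fold change 2.34, SE 0.47, edgeR adjusted p = 0.108). Leaving out 1 library gave log2 fold changes of 1.81 to 2.72 for Ptgs1. Hpgd, which breaks prostaglandins down, stood at 0.267 and 0.311 CPM with Dox and at 1.32 and 2.12 CPM without Dox (log2 fold change -2.54, SE 0.42, edgeR adjusted p = 0.059). The log2 fold change of Hpgd ran from -2.84 to -2.17 when 1 library was left out.

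For Gpr37, none of 7 tested relatives and partners was called by edgeR (median 0.36), with 3 higher and 1 lower at an unadjusted p under 0.05. Over all genes tested, the unadjusted shares were 6.26% higher and 4.02% lower. Psap, which encodes the proposed ligand prosaposin, stood at 869 and 1000 CPM with Dox and at 874 and 860 CPM without Dox (log2 fold change 0.11, SE 0.14, edgeR adjusted p = 0.899). The close relative Gpr37l1 had 0 counts in every library. Ednrb, an endothelin receptor, stood at 142 and 84.4 CPM with Dox and at 231 and 149 CPM without Dox, with an edgeR adjusted p of 0.481. Its log2 fold change was -0.75 (SE 0.30), and ran from -1.17 to -0.39 when 1 library was left out. An edgeR fit with a replicate block, described below, called Ednrb lower (adjusted p = 2e-06). For Uts2b, its receptor Uts2r had 0 counts in both Dox libraries and 1 in each no Dox library, and its relative Uts2 had 1 count in each Dox library and 0 in both no Dox libraries. None of 7 tested genes of the urotensin and somatostatin system was called by edgeR (median -0.15), with 2 higher and 1 lower at an unadjusted p under 0.05. Sst, the somatostatin gene, stood at 37.7 and 28 CPM with Dox and at 58.9 and 52 CPM without Dox (log2 fold change -0.76, SE 0.18, edgeR adjusted p = 0.154). Leaving out 1 library gave log2 fold changes of -0.98 to -0.54 for Sst. The somatostatin receptor genes Sstr1 and Sstr5 were the 2 that were higher. Sstr1 had 15 and 32 counts with Dox and 1 and 2 counts without Dox (log2 fold change 3.03, SE 0.67, edgeR adjusted p = 0.136). Sstr5 had 18 and 17 counts with Dox and 0 and 1 counts without Dox (log2 fold change 4.10, SE 0.97, edgeR adjusted p = 0.169).

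For Spp2, 2 of 8 genes of secreted cystatin-like and related proteins had enough counts, and neither was called by edgeR or had an unadjusted p under 0.05. Cst3 stood at 209 and 270 CPM with Dox and at 195 and 277 CPM without Dox. Ahsg, a cystatin-family protein of liver like Spp2, had 2 and 4 counts with Dox and 0 and 1 without Dox. For Tm4sf4, the relatives Tm4sf5, Tm4sf19 and Tm4sf20 had too few counts to be tested. Tm4sf5 had 4 and 5 counts with Dox and 4 and 3 without Dox. Tm4sf19 had 3 and 3 counts with Dox and Tm4sf20 had 8 and 6, and both had 0 in each no Dox library. For Nkx3-2, 4 of 12 other Nkx genes were tested and 1 was called. Nkx6-2, a homeodomain factor of ventral spinal progenitors, rose to 25.9 and 32.6 CPM with Dox, against 2.57 and 3.67 CPM without Dox (log2 fold change 3.23, SE 0.24, edgeR adjusted p = 0.00389).

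Several of the 7 genes are known from tissues other than the nervous system, so markers of those tissues were read beside them. Of 45 tested markers of liver and visceral endoderm, sclerotome and cartilage, glia, blood and pluripotent cells, edgeR called 3 higher (Apob, Sox9 and Aqp4) and 0 lower, where the shares over all genes tested were 1.23% and 0.056%. The 17 liver and endoderm markers, set beside Spp2 and Tm4sf4, summed to 1042 and 1298 CPM with Dox and to 1034 and 1240 CPM without Dox (1 of 15 tested higher, median 0.00). Gata4, a factor of endoderm and heart, made up much of that sum, with 553 and 644 CPM with Dox and 560 and 591 CPM without Dox. Alb, the albumin gene, had 0 and 1 counts with Dox and 0 and 1 without Dox. Apob, the apolipoprotein B gene, rose to 8.05 and 6.97 CPM with Dox, against 2.39 and 1.71 CPM without Dox (log2 fold change 1.87, SE 0.26, edgeR adjusted p = 0.0364). The 15 sclerotome and cartilage markers, set beside Nkx3-2, summed to 384 and 339 CPM with Dox and to 296 and 259 CPM without Dox (1 of 13 tested higher, median 0.32). Col2a1 made up most of that sum, with 284 and 219 CPM with Dox and 233 and 185 CPM without Dox. Of these 13, an unadjusted edgeR p under 0.05 was reached by 4 in the higher direction, Sox9, Meox2, Twist1 and Scx. In the lower direction it was reached by 1, Uncx. The shares over all genes tested were 6.26% higher and 4.02% lower. Sox9, a factor of cartilage and of neural progenitors, rose to 46.8 and 54.8 CPM with Dox, against 26.5 and 21.7 CPM without Dox (log2 fold change 1.07, SE 0.16, edgeR adjusted p = 0.0449). Meox2, a homeobox gene of somites that itself met the count thresholds, had 39 and 151 counts with Dox and 0 and 4 without Dox (log2 fold change 4.57, SE 0.97, edgeR adjusted p = 0.126). Twist1 stood at 24.4 and 23.3 CPM with Dox and at 11.7 and 16.6 CPM without Dox (edgeR adjusted p = 0.215), and Scx at 3 and 3.61 CPM with Dox and at 1.94 and 1.75 CPM without Dox (edgeR adjusted p = 0.312). Pax1, a defining sclerotome gene, had 3 and 6 counts with Dox and 3 and 5 without Dox. The part of these cells in the level of Nkx3-2 was not tested.

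The 14 glial markers, set beside Gpr37, summed to 440 and 444 CPM with Dox and to 511 and 470 CPM without Dox (1 of 10 tested higher, median -0.02). Pdgfra made up most of that sum, with 389 and 392 CPM with Dox and 467 and 425 CPM without Dox. The oligodendrocyte genes Sox10 and Mog had 5 to 15 counts in each Dox library and 1 to 9 in each no Dox library. The water channel gene Aqp4 rose to 5.96 and 8.47 CPM with Dox, against 0.294 and 0.408 CPM without Dox (log2 fold change 4.36, SE 0.36, edgeR adjusted p = 0.00488). The 7 measured blood markers, set beside Ptgdr, summed to 1.04 and 1.87 CPM with Dox and to 1.5 and 2.2 CPM without Dox, and the leukocyte gene Ptprc and the mast cell gene Cpa3 had 0 counts in every library. The 7 pluripotency markers summed to 82.3 and 81.8 CPM with Dox and to 101 and 82.4 CPM without Dox. Klf4 made up most of these sums, with 70.1 and 64.2 CPM with Dox and 90.1 and 69.4 CPM without Dox. Pou5f1 stood at 0.401 and 0.933 CPM with Dox and at 0.624 and 0.53 CPM without Dox. Nanog stood at 0.481 and 0.311 CPM with Dox and at 0.697 and 0.571 CPM without Dox. Of the 7, 6 were tested, with 0 called by edgeR and 1 higher at an unadjusted p under 0.05 (6.26% of all genes tested). The gene that was higher was not Klf4, Pou5f1 or Nanog. The part of these cells in the levels of the 7 genes was not tested.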

How the data were processed

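Per the labels' protocols, TruSeq RNA libraries carried index tags; titles put 2 samples in the Dox and 2 in the no Dox group. TopHat and genome build mm9 appear, without a TopHat version, in the submitters' processing notes. No source used here gives the counter, its annotation or its use of strand. The authors deposited whole-number counts for 208825 parts of RefSeq gene units, 1 table per sample. The 4 rows that name no gene stayed out of totals and tests. Reads outside genes equalled 13.6% to 15.8% of all counts, and ambiguous reads 0.411% to 0.521%.

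Parts were summed to 21822 gene units, so a read that spans parts may count more than once. Of 27601 transcript identifiers, 97.1% were matched to a symbol with the RefSeq gene table of GRCm38.p6 and GENCODE M21. This reference is a later build than mm9 and gave names, gene order, exon lengths and promoter windows only. The members and lists were chosen with earlier results of these data known.

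Genes other than the 7 were tested by edgeR's quasi-likelihood method (version 4.0.16, R 4.3.3), with TMM factors, robust estimates and its default low-count filter, with Benjamini-Hochberg adjustment over the 14283 genes kept, at 0.05. The filter kept all 7 members, which reached it through their Dox counts. The biological coefficient of variation was 0.148. Ratios of summed counts have exact 95% (Clopper-Pearson, conditional binomial) intervals, and levels exact Poisson limits. A group at 0 was set to 3 counts in all for a lower bound. Counting error alone enters these intervals and bounds, and PCR copies are not independent molecules. The test was run on simulated counts with known changes first. Genes named are the 7 members, Isl1 and Lhx3, the others past both thresholds, the nearest genes to the thresholds, the 2 genes on each side of each member, the nearest pattern for each, and per list the called genes or the most abundant; further list genes (the partners of a member, defining markers, and the larger differences that were not called) were chosen after their values were seen. Alternatives were DESeq2 1.42.0, DESeq2 size factors, no filter, the largest part as gene count, other count thresholds, a replicate block and leaving out each library. A gene of the lists is not reported here.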

Additional observations from a re-analysis of the deposited data

How the results depend on the processing

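The counts of calls moved with the method, while none of the 23 named genes that were refitted changed direction. With edgeR, 175 genes were called higher and 8 lower, against 295 and 46 with no filter on low counts, 403 and 116 with DESeq2, and 14 lower when the largest part stood for the gene; leaving out 1 library gave 276 to 283 higher and 22 to 124 lower. Among the genes beside the 7, edgeR called 1 higher and 0 lower, DESeq2 2 higher, and leaving out 1 library 1 to 3 higher. Among the relatives and partners, 2 were called higher and 0 lower, against 4 and 2 with DESeq2, 1 lower with no filter and 1 higher with the largest part; leaving out 1 library gave 2 to 4 higher and 0 to 3 lower. Among the cell type markers, 9 were called higher and 0 lower, and leaving out 1 library gave 0 to 1 lower. The causes were not tested. Replicate numbers come from the sample titles, and the main fit did not use them. Across the genes tested, deviations from the group mean had a correlation of 0.521 between same-numbered libraries. Whether same-numbered libraries shared a batch was not tested. The fit with the replicate block called 1047 genes higher and 869 lower, 2 neighbours higher and 1 lower, 11 relatives and partners higher and 4 lower, and 17 cell type markers higher and 1 lower. Several genes given above as not called were called in that fit. Nbea, Ptgs1, Sstr1, Sstr5 and Meox2 were called higher, and Hpgd, Sst and Ednrb lower. The calls of these genes thus depend on whether replicate numbers are used.

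The count thresholds decide the membership of several genes. They were met by 24 genes, by 54 with 20 no Dox counts allowed, by 12 with over 200 Dox counts required, and by 9 to 70 when 1 library was left out. Uts2b, Tm4sf4 and Nkx3-2 failed the requirement of over 200 counts, Gpr37 failed at 5 or fewer and over 50 counts, and without Dox replicate 2 only Ptgdr, Gpr37 and Spp2 of the 7 met the thresholds. Of 49 alternative ratios of the 7 genes, 45 stayed within the counting interval; the others were that of Ptgdr without no Dox replicate 2 (at least 41.3) and those of Tm4sf4 with the largest part (at least 6.83) and without either no Dox library (at least 10.8 and 12). Of 204 alternatives for 23 other named genes, 171 kept the call, 32 gained one and 1 lost it, which was Apob with the largest part (edgeR adjusted p = 0.121). Tm4sf1 was not tested with the largest part, so its call is missing there, and Nbea was the neighbour called (edgeR adjusted p = 0.0266). Depth limits the ratios, since the 7 genes had 0 to 4 counts in each no Dox library.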
